A study of Mus musculus with 6 samples.

Results

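The transcripts described here are 41 interferon-stimulated genes, chosen by name as genes that interferons are known to induce and not by their values in these samples. All 41 were found among the 25701 genes of the count table, 40 by symbol and *Ddx58*, which the table lists as *Rigi*, by its Ensembl identifier. They were measured by poly-A RNA-seq of CD11b+ cells from subcutaneous TC1 tumors, in 3 MCT2 CO and 3 MCT2 KO mice, with total counts between 24863611 and 31713704. CD11b is an integrin subunit found on the surface of myeloid cells such as macrophages, monocytes and neutrophils, and TC1 is a mouse lung tumor line. The methods describe MCT2loxP/loxP; Cre+ mice, bred from MCT2loxP and mCre-Tg animals on a C57BL/6 background, in which MCT2 KO stands for those given tamoxifen, from 8 weeks of age, and MCT2 CO for those given vehicle. TC1 cells were injected 2 days after the last tamoxifen dose, and tumors were taken 24 days later. Tamoxifen itself and the loss of MCT2 therefore cannot be told apart. The deletion is systemic, the injected tumor cells are not targeted, and the CD11b+ cells were collected by magnetic positive selection from digested tumors, so the preparations can hold other cells. The records label the tissue as lung, although the tumors grew in the flank, and knockout library names carry other numbers than their titles.

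Interferons are cytokines that signal through surface receptors and JAK kinases to STAT transcription factors. Type I interferons act mainly through a complex that holds STAT2 and IRF9 and binds the interferon-stimulated response element, and interferon gamma acts mainly through the gamma-activated site. The induced genes encode sensors of viral nucleic acid, proteins that block viral entry, translation or replication, and GTPases that act on intracellular pathogens, and in tumors macrophages are a known site of this response.

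The promoters of these genes are shown first, because the response elements are what the genes share in sequence. RefSeq promoters on GRCm38.p6, which run from 250 bases before to 50 bases after the start, were matched for 33 of the 41 genes; *Oas2*, *Iigp1*, *Mx1*, *Dhx58*, *Zbp1*, *Mx2*, *Parp14* and *Usp18* had no entry. The core of the interferon-stimulated response element was searched as GAAA, 2 bases of any kind and GAAA again, on both strands, so that on the printed strand it can read as TTTC blocks, and overlapping matches were kept. It was found in 20 of the 33 genes (60.6%), against 3.99% of the 27025 genes with a promoter in the RefSeq table. The gamma-activated site, TTCNNNGAA, which reads the same on both strands, was found in 11 (33.3%), against 9.55%. Both occurred in 6 of the 33, and 8 had neither, among them *Irf7*, *Oasl1* and *Ifitm1*. All 6 matched guanylate-binding proteins and immunity-related GTPases had the response element core. A match is a string of letters in a window and does not show binding. The stretches below, 130 bases up to the base before the RefSeq start, are given for *Isg15* with 3 overlapping cores, *Ifit1* with 2 separate cores, *Rsad2* with 1, *Gbp7* with both kinds and *Irf1* with the gamma-activated site alone. Capitals mark the matches. They lie at chr4:156200819-156200948 (minus strand), chr19:34640759-34640888 (plus), chr12:26456453-26456582 (minus), chr3:142530206-142530335 (plus) and chr11:53769884-53770013 (plus), in this order.
Isg15: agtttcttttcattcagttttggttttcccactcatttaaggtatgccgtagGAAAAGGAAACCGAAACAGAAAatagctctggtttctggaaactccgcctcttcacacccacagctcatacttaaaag
Ifit1: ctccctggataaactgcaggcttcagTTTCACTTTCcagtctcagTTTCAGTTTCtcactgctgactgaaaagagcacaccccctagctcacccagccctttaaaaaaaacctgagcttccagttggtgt
Rsad2: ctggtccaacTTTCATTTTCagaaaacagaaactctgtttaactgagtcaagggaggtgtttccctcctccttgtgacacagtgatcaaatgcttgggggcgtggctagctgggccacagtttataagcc
Gbp7: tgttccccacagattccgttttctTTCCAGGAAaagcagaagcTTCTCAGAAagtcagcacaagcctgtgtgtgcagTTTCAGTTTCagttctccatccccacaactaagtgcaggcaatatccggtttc
Irf1: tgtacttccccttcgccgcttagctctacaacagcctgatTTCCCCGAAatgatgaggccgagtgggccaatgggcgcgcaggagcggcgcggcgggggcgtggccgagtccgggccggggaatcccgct

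The targeted gene, *Slc16a7*, which encodes MCT2, was counted 481, 287 and 298 times in the MCT2 CO libraries and 196, 162 and 133 times in the MCT2 KO libraries, in the order of the replicates, and the groups did not overlap. Its log2 fold change was -1.05 (SE 0.24, edgeR adjusted p = 0.370, DESeq2 adjusted p = 0.00908), so transcript was still present in the cells labelled knockout. All 11 macrophage markers were detected, with summed levels of 8061 to 16681 CPM (counts scaled to the TMM-adjusted library size). *Itgam*, the gene of CD11b, had 1 count over the 6 libraries, and its exons lie almost wholly inside the span of another listed gene. Markers of tumor and mesenchymal cells summed to 1663 to 2813 CPM in MCT2 CO and 1314 to 1448 in MCT2 KO, and their part in the results was not tested. Most of this sum was *Col3a1*, the only 1 of the 7 markers that was lower in MCT2 KO without overlap (8.77% of all genes tested). *Krt18*, under 1 CPM in every library, was higher without overlap (7.07% of all genes tested), and the other markers overlapped. In bulk samples, fewer cells of a type and less RNA per cell cannot be told apart.

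Of the 41 genes, 40 passed the filter on low counts, and none of these was called by edgeR's quasi-likelihood test, for which the adjusted p had to reach 0.05 and the log2 fold change 0.58 in either direction. Over all 13485 genes tested, the share called was also 0%. The adjusted p of the 40 genes ranged from 0.370 to 0.996. At an unadjusted p under 0.05, *Ifitm1* was higher in MCT2 KO and *Ifitm2* was lower, which is 2.5% of the 40 genes in each direction, against 3.77% higher and 5.6% lower over all genes. Each of these shares is a single gene, too few to set them apart from the background. DESeq2, run on every gene that had 1 count or more, called 1 of the 40, *Ifitm1*, beside 83 of the 14202 genes that had an adjusted p (0.584%).

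The sizes of the differences were small and went both ways. Log2 fold changes ran from -0.52 to 0.70 with a median of -0.02, and 19 of 40 lay above 0, against 50.1% of all genes. For 36 of the 40 genes the 95% interval lay wholly within a 2-fold change in either direction, so larger group differences in most of these genes were outside the intervals. The same held for 11553 of all 13485 genes tested, so it is not particular to these genes. Non-overlapping groups were found for *Ifitm1* (higher in MCT2 KO, against 7.07% of all genes) and *Ifitm2* (lower, against 8.77%). The count of genes above 0 moved with single mice: it was 4 without MCT2 KO replicate 3, 10 without MCT2 CO replicate 3, 30 without MCT2 CO replicate 2 and 32 without MCT2 KO replicate 2. The shares over all genes with those mice left out are not given here.

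**Figure D1:**
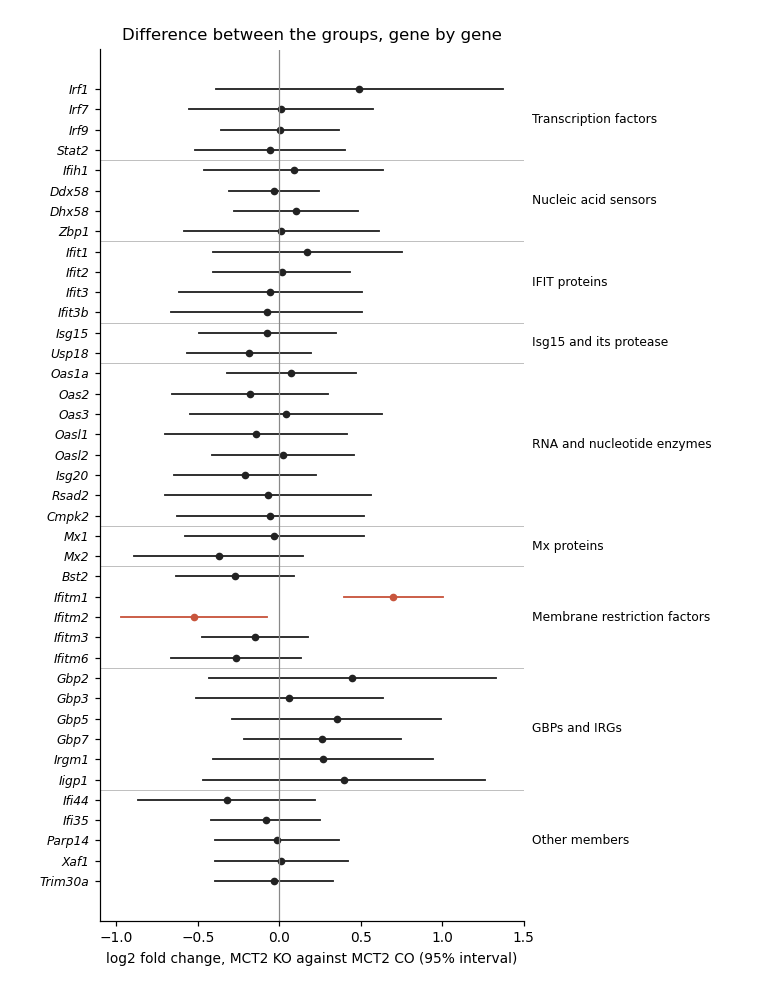
Log2 fold change of each of the 40 tested interferon-stimulated genes, MCT2 KO against MCT2 CO (points), with the 95% interval from edgeR's quasi-likelihood fit (lines), grouped by role; 3 mice per group. *Ifitm1* and *Ifitm2*, in red, are the genes whose groups did not overlap, and the intervals of the other 38 include 0.

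The larger differences were between mice of the same group. All 40 genes were higher in MCT2 KO replicate 3 than in MCT2 KO replicate 2, against 49.7% of all genes, with ratios from 1.12 for *Ifitm2* to 2.72 for *Irf1* and a median of 1.67. Within MCT2 CO, 38 of 40 were higher in replicate 2 than in replicate 3, against 51.4% of all genes, with a median ratio of 1.33. MCT2 KO replicate 3 held the highest value of 26 of the 40 genes, against 12.2% of all genes. MCT2 CO replicate 2 held that of 11, against 9.14% of all genes. MCT2 KO replicate 2 held the lowest value of 29, against 22.7% of all genes. MCT2 CO replicate 3 held that of 8 of the 40, which is near its share of 23.2% over all genes. The median SD within a group on the log2 scale was 0.34 for the 40 genes and 0.14 for all genes. Expressed as the median of log2(CPM + 1) minus each gene's mean over the 6 libraries, the 40 genes stood at -0.01, 0.26 and -0.15 in the MCT2 CO mice and at -0.02, -0.37 and 0.34 in the MCT2 KO mice. The lowest and the highest library thus both belonged to MCT2 KO.

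**Figure D2:**
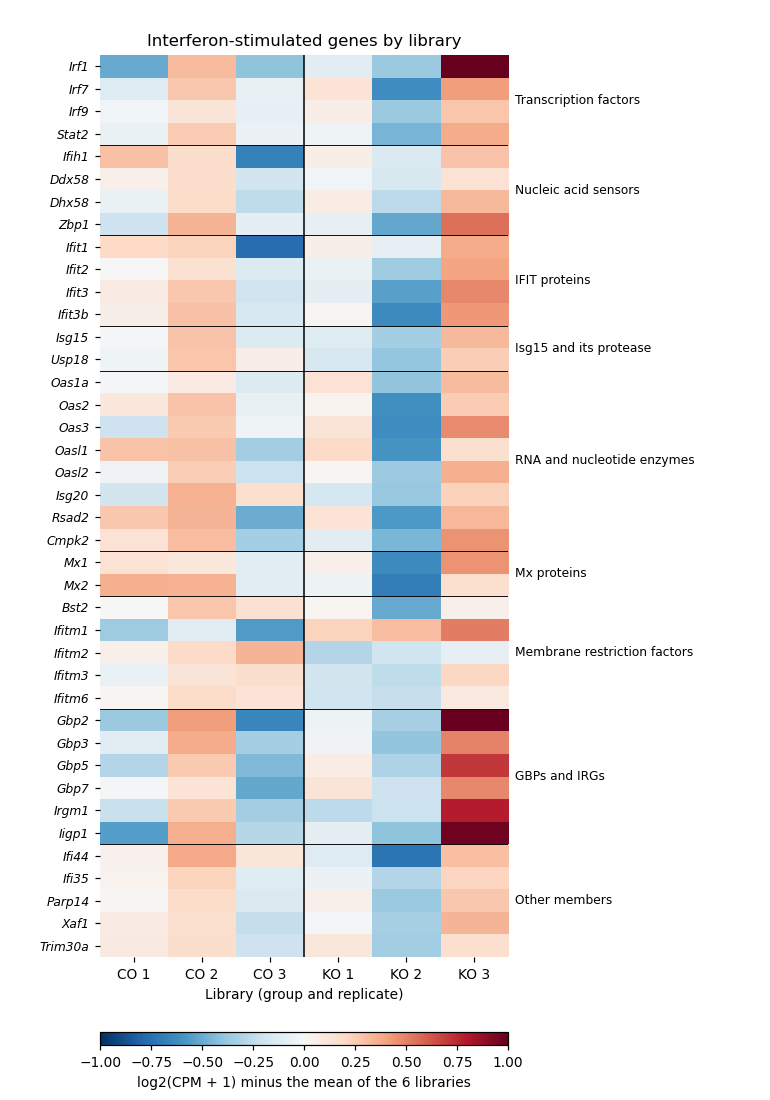
Heatmap of the 40 tested interferon-stimulated genes (rows, by role) in the 6 libraries (columns), coloured by log2(CPM + 1) minus the gene's mean over the libraries, with colours ending at -1 and 1 (*Irf1* in KO replicate 3 lies at 1.07). KO replicate 3 is the highest library in 26 rows and KO replicate 2 the lowest in 29.

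The summed markers of T cells and those of endothelial cells had both extremes in the same knockout libraries as the interferon-stimulated genes. The 4 endothelial markers summed to 91.0, 94.7 and 87.6 CPM in MCT2 CO and to 113, 75.5 and 130 CPM in MCT2 KO. The NK-cell sum shared only the highest library. The B-cell sum and the sums of conventional and plasmacytoid dendritic cells shared only the lowest. The 8 T-cell markers summed to 44.6, 67.0 and 48.4 CPM in MCT2 CO and to 60.9, 14.2 and 90.4 CPM in MCT2 KO, lowest in MCT2 KO replicate 2 and highest in MCT2 KO replicate 3. *Cd4* was the exception, highest in MCT2 KO replicate 1. It had 15.1, 13.5 and 13.8 CPM in MCT2 CO and 20.6, 5.31 and 8.19 CPM in MCT2 KO. The other T-cell markers on the list were each highest in MCT2 KO replicate 3, with *Cd8a* at 26.6 CPM there. The 7 NK-cell markers summed to 34.7, 56.0 and 39.1 CPM in MCT2 CO and to 40.0, 52.8 and 82.8 CPM in MCT2 KO, highest in MCT2 KO replicate 3 and lowest in MCT2 CO replicate 1. Most of that sum was *Gzmb* and *Prf1*, whereas *Ncr1*, *Klrb1c* and *Gzma* were lower in every MCT2 KO library than in any MCT2 CO library, with *Gzma* at 5.07, 8.23 and 7.83 CPM in MCT2 CO and 3.27, 2.92 and 3.74 CPM in MCT2 KO. The 6 B-cell markers summed to 17.2, 19.4 and 21.7 CPM in MCT2 CO and to 16.1, 3.90 and 13.9 CPM in MCT2 KO, with 4 of 6 lower in MCT2 KO without overlap. Over all genes tested, 8.77% were lower in MCT2 KO without overlap. The 11 macrophage markers did not follow the order of the T-cell sum, since their highest sum was in MCT2 KO replicate 1. Plasmacytoid dendritic cells are a known source of type I interferon. Their markers other than *Bst2* summed to 238 to 310 CPM in MCT2 CO and 215 to 242 CPM in MCT2 KO, but most of this was *Tcf4*, which many other cells express. Their more specific marker *Siglech* lay between 2.00 and 4.18 CPM in the 6 libraries, *Klk1* was under 1 CPM in every library, and *Cox6a2* was at 0. The part of these cells in the differences between mice was not tested.

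Among the transcription factors, *Irf7*, which amplifies type I interferon production, had the highest CPM. It stood at 407, 537 and 422 CPM in MCT2 CO and at 490, 288 and 595 CPM in MCT2 KO. The knockout mice held both the lowest and the highest value, the groups overlapped, and the log2 fold change was 0.01 (95% interval -0.56 to 0.57). *Irf1*, a factor that interferon gamma induces strongly and that was picked here for its spread after its values were seen, stood at 110, 195 and 118 CPM in MCT2 CO and at 145, 121 and 328 CPM in MCT2 KO. Only MCT2 KO replicate 3 lay above all MCT2 CO mice. The log2 fold change of *Irf1* was 0.49 (95% interval -0.39 to 1.37) and was -0.08 without that mouse. *Irf9* and *Stat2*, partners in the complex that binds the response element, had log2 fold changes of 0.00 and -0.06.

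Of the sensors of viral nucleic acid, *Ifih1* (MDA5, a sensor of long double-stranded RNA) had 438, 405 and 224 CPM in MCT2 CO and 374, 324 and 436 CPM in MCT2 KO. Its low value in MCT2 CO replicate 3 set the spread of the group, and its log2 fold change of 0.09 (95% interval -0.46 to 0.64) turned to -0.16 without that mouse. *Ddx58* (RIG-I), *Dhx58* (LGP2) and the Z-nucleic acid sensor *Zbp1* had log2 fold changes of -0.03, 0.10 and 0.01.

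The IFIT proteins bind viral RNA and restrain its translation. *Ifit1*, whose promoter holds the pair of cores shown above, had 220, 223 and 112 CPM in MCT2 CO and 198, 180 and 247 CPM in MCT2 KO. The lowest value was that of MCT2 CO replicate 3 and the groups overlapped, with a log2 fold change of 0.17 (95% interval -0.41 to 0.75). *Ifit2*, *Ifit3* and *Ifit3b* had log2 fold changes of 0.01, -0.06 and -0.08. *Ifit3* and *Ifit3b* are near-identical copies: 51.2% of the 50-base stretches of *Ifit3* transcripts also occur in a transcript of another gene, mostly *Ifit3b*, so the split of reads between them is uncertain.

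*Isg15* encodes a ubiquitin-like modifier. It had 208, 258 and 192 CPM in MCT2 CO and 194, 167 and 265 CPM in MCT2 KO, and both groups covered nearly the same range. Its log2 fold change was -0.07 (95% interval -0.49 to 0.35). *Usp18*, the protease that removes *Isg15* from proteins and restrains receptor signalling, had a log2 fold change of -0.18.

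Of the 8 enzymes that act on RNA and nucleotides, with the OAS-like proteins, each had its lowest value in MCT2 KO replicate 2, and 3 of 8 had a log2 fold change above 0. *Oasl1*, an OAS-like protein without synthetase activity, had 468, 471 and 301 CPM in MCT2 CO and 439, 254 and 429 CPM in MCT2 KO. One mouse of each group lay well below the others, and the log2 fold change was -0.14 (95% interval -0.70 to 0.41). The synthetases *Oas1a*, *Oas2* and *Oas3*, which make the activator of RNase L, had log2 fold changes of 0.08, -0.18 and 0.04, and *Oasl2* had 0.02. The exonuclease *Isg20* had -0.21, and *Rsad2* (viperin) and *Cmpk2*, neighbours that act on nucleotides, had -0.07 and -0.06. For *Oas1a*, 57.6% of its 50-base stretches also occur in another gene's transcript, mostly *Oas1g*.

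The dynamin-like Mx GTPases had their lowest values in MCT2 KO replicate 2. *Mx1* had 124, 121 and 103 CPM in MCT2 CO and 116, 71.8 and 153 CPM in MCT2 KO, with a log2 fold change of -0.03 (95% interval -0.58 to 0.52). *Mx2* had 53.8, 53.3 and 38.5 CPM in MCT2 CO and 40.3, 25.4 and 46.9 CPM in MCT2 KO. The groups overlapped for both, and *Mx2* had a log2 fold change of -0.37 (95% interval -0.89 to 0.15, edgeR adjusted p = 0.640).

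The membrane restriction factors held the only genes whose groups did not overlap, and they moved in opposite directions. *Ifitm1*, a membrane protein that blocks viral entry (chromosome 7 of GRCm38, 140967221 to 140969825, plus strand), had 59.2, 70.2 and 51.0 CPM in MCT2 CO and 89.2, 94.6 and 109 CPM in MCT2 KO. Every MCT2 KO mouse lay above every MCT2 CO mouse, and MCT2 KO replicate 2, low for most of the other genes, was not low here. The fold was 1.62 (95% interval 1.32 to 2.00, log2 fold change 0.70, SE 0.13), with an edgeR adjusted p of 0.370 and a DESeq2 adjusted p of 0.00307. The exact two-sided permutation test gave p = 0.1, the smallest that 3 against 3 allow. Leaving out single mice kept its log2 fold change between 0.59 and 0.83. Of 12 neutrophil markers, 8 were higher in MCT2 KO without overlap, against 7.07% of all genes tested. The others, *Mmp9*, *Csf3r*, *Cxcr2* and *Lcn2*, overlapped, and *Csf3r* was lowest in MCT2 KO replicate 2. The sums also overlapped, at 123, 114 and 132 CPM in MCT2 CO and 216, 122 and 157 CPM in MCT2 KO. The part of neutrophils in the level of *Ifitm1* was not tested.

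*Ifitm2*, a paralog on the same chromosome, had 3.04, 3.46 and 3.95 CPM in MCT2 CO and 2.18, 2.39 and 2.69 CPM in MCT2 KO. All MCT2 KO values lay below the MCT2 CO values, with a log2 fold change of -0.52 (SE 0.19, edgeR adjusted p = 0.491) and p = 0.1 in the exact permutation test. This gene is uncertain, since 92.4% of its exon bases lie inside the span of *Gm45717* and 48.5% of its 50-base stretches also occur in another gene's transcript. *Ifitm3*, the paralog with the highest CPM, had 433, 495 and 514 CPM in MCT2 CO and 398, 380 and 523 CPM in MCT2 KO, and *Ifitm6* had 4.94, 5.65 and 5.46 CPM against 4.11, 3.99 and 5.26 CPM. Both overlapped between groups, with log2 fold changes of -0.15 and -0.26. *Bst2* (tetherin, which holds budding virions at the cell surface) had 225, 274 and 251 CPM in MCT2 CO and 229, 159 and 234 CPM in MCT2 KO. Only MCT2 KO replicate 2 lay well below the others, and the log2 fold change was -0.27 (95% interval -0.63 to 0.09, edgeR adjusted p = 0.624).

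**Figure D3:**
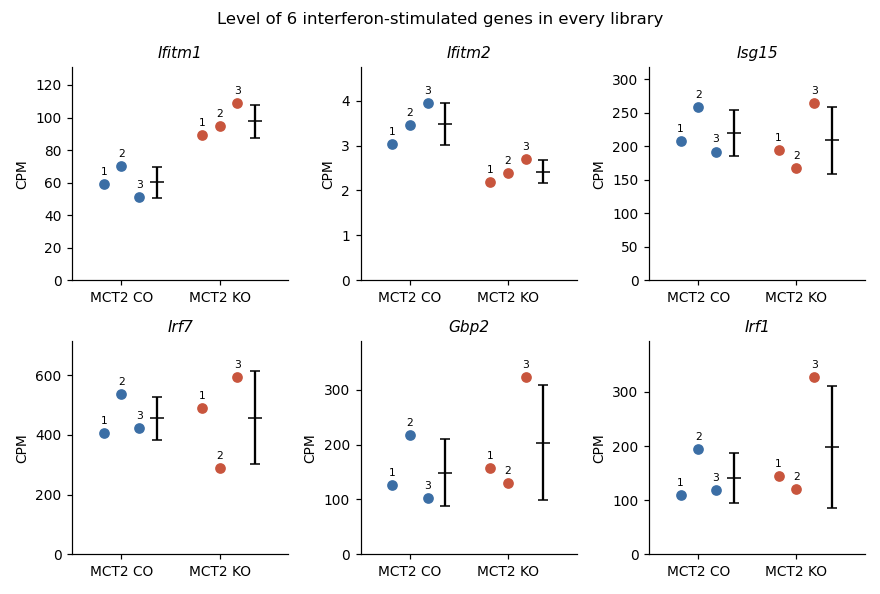
Level (CPM, linear axis from 0) of 6 interferon-stimulated genes in each MCT2 CO (blue) and MCT2 KO (red) library, numbered by replicate, with the mean and SD of each group (bars). *Ifitm1* and *Ifitm2* separate the groups in opposite directions, while *Isg15*, *Irf7*, *Gbp2* and *Irf1* are highest in MCT2 KO replicate 3 and overlap between groups.

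The guanylate-binding proteins and immunity-related GTPases attack the vacuoles of intracellular pathogens and respond strongly to interferon gamma. All 6 that were tested had log2 fold changes above 0, with a median of 0.31 and a range from 0.06 for *Gbp3* to 0.45 for *Gbp2*, and none passed the test. *Gbp2* had 126, 218 and 103 CPM in MCT2 CO and 157, 129 and 323 CPM in MCT2 KO, with a 95% interval for the log2 fold change from -0.43 to 1.33. MCT2 KO replicate 3 was the highest library for all 6, and without it the log2 fold change of *Gbp2* was -0.05. These genes also spread most within groups: MCT2 KO replicate 3 exceeded MCT2 KO replicate 2 by a median ratio of 2.03, MCT2 CO replicate 2 exceeded MCT2 CO replicate 3 by 1.61, and the median SD on the log2 scale was 0.46. In the membrane restriction factors that SD was 0.19. *Gbp5*, *Gbp7*, *Irgm1* and *Iigp1* had log2 fold changes of 0.35, 0.26, 0.27 and 0.40. *Igtp* was the gene that did not pass the filter, with 9 counts over the 6 libraries, and 96.9% of its exon bases lie inside the span of *Irgm2*. For *Gbp7*, 12.7% of the 50-base stretches also occur in another gene's transcript.

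Of the other genes, *Parp14*, an ADP-ribosyltransferase, had 272, 308 and 245 CPM in MCT2 CO and 281, 210 and 326 CPM in MCT2 KO. The groups overlapped, with a log2 fold change of -0.02 (95% interval -0.40 to 0.36). *Ifi44*, *Ifi35*, *Xaf1* and *Trim30a* had log2 fold changes of -0.32, -0.08, 0.01 and -0.03, and all 5 were lowest in MCT2 KO replicate 2.

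Levels were compared between genes only after division by exon length, as mean CPM per kb of exon over the 6 libraries. The deposited gene lengths equal the whole gene span, so the counts may include intron reads. Levels per kb of exon are therefore only approximate. *Ifitm3* was highest at 674, followed by *Isg15* at 283, *Bst2* at 253, *Oasl1* at 151 and *Irf7* at 121. Of the genes tested, *Ifitm2* was lowest at 4.51, followed by *Ifitm6* at 5.42 and *Gbp5* at 5.86. The interferon-stimulated genes were thus expressed in both groups.

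**Figure D4:**
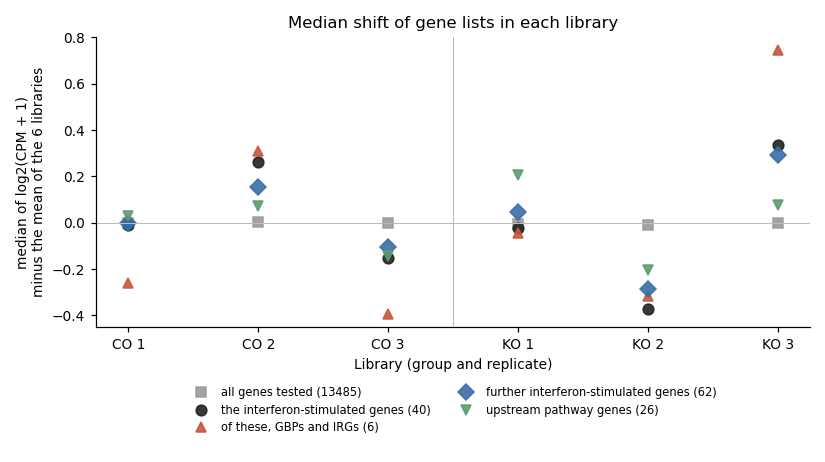
Median, in each library, of log2(CPM + 1) minus the gene's mean over the 6 libraries, for all genes tested and for 4 gene lists, with the number of genes in each. All genes stay near 0, while the interferon-stimulated genes run from -0.37 in KO replicate 2 to 0.34 in KO replicate 3, and the GTPases reach 0.74 there.

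The genes that make and carry the interferon signal were taken from a list of 32 symbols, of which 30 were found in the table, counted once each, and 26 tested. None was called by edgeR. At an unadjusted p under 0.05, 1 was higher (*Ikbke*) and 2 were lower (*Socs1* and *Cgas*), against the 3.77% and 5.6% of all genes given above, and 18 of 26 had a log2 fold change above 0. Of the ligands, *Ifnb1* (interferon beta) had 6.27, 5.08 and 3.46 CPM in MCT2 CO and 4.65, 1.35 and 2.05 CPM in MCT2 KO. MCT2 KO replicates 2 and 3 lay below every MCT2 CO mouse and MCT2 KO replicate 1 did not, with a log2 fold change of -0.90 (SE 0.44, edgeR adjusted p = 0.566). *Ifng* (interferon gamma) had 1.07, 3.12 and 2.37 CPM in MCT2 CO and 2.31, 0.491 and 7.67 CPM in MCT2 KO. Its lowest and highest values came from MCT2 KO replicates 2 and 3, as did those of the summed T-cell markers and the summed endothelial markers. The log2 fold change of *Ifng*, which has 25.9% of its exon bases inside other listed spans, was 0.67 (SE 0.81), and -0.67 without MCT2 KO replicate 3. *Ifna1*, *Ifna2* and *Ifna4* had 9, 9 and 19 counts over all libraries and were not tested.

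None of the receptor subunits and JAK family kinases passed an unadjusted p of 0.05. *Ifnar1*, *Ifnar2*, *Ifngr1* and *Ifngr2* had log2 fold changes of 0.21, 0.07, 0.01 and 0.12, and *Jak1*, *Jak2* and *Tyk2* had -0.01, 0.04 and 0.13. The value of *Ifnar2* is uncertain, since 73.6% of its exon bases lie inside other listed spans. *Socs1*, which restrains JAK kinases and is itself induced by interferons, had 7.64, 6.23 and 6.81 CPM in MCT2 CO and 4.49, 2.27 and 4.22 CPM in MCT2 KO. Every MCT2 KO mouse lay below every MCT2 CO mouse, with a log2 fold change of -0.92 (SE 0.26, edgeR adjusted p = 0.426). *Ikbke*, a kinase of interferon regulatory factors, had 26.4, 26.3 and 19.7 CPM in MCT2 CO and 28.6, 37.3 and 48.9 CPM in MCT2 KO, with a log2 fold change of 0.67 (SE 0.20, edgeR adjusted p = 0.430). *Cgas*, the sensor of cytosolic DNA, had 45.4, 46.0 and 43.3 CPM in MCT2 CO and 35.0, 40.3 and 39.6 CPM in MCT2 KO (log2 fold change -0.23, edgeR adjusted p = 0.497). The groups did not overlap for these 3 genes, at p = 0.1 in the exact permutation test. Of the 26 pathway genes tested, 3.85% were thus apart and higher and 7.69% apart and lower. The shares over all genes were 7.07% and 8.77%, so such separations were no more frequent here than elsewhere. *Myd88*, an adaptor of Toll-like receptors, had 0 counts, with all of its exon bases inside the span of another listed gene.

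**Figure D5:**
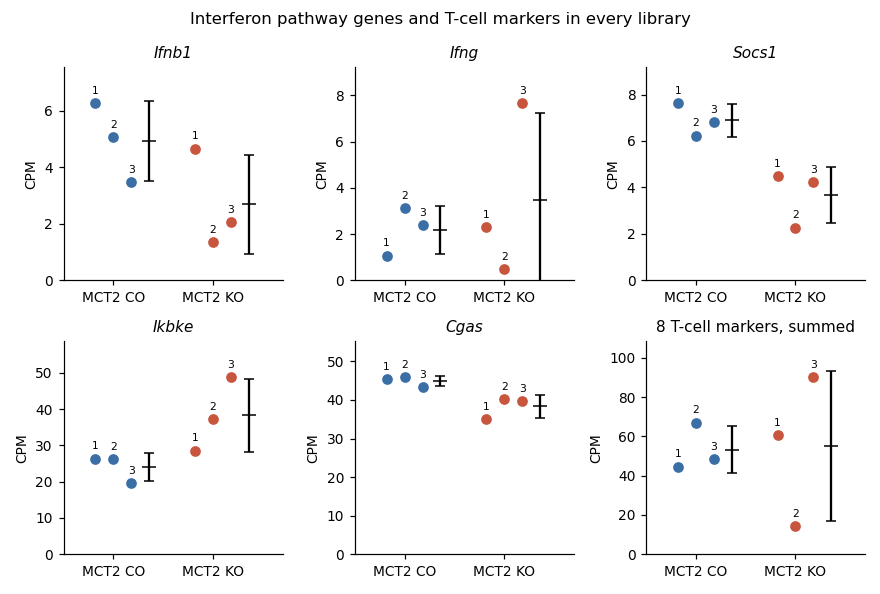
Level (CPM, linear axis from 0) of 5 interferon pathway genes and the summed level of 8 T-cell markers in each MCT2 CO (blue) and MCT2 KO (red) library, numbered by replicate, with mean and SD (bars, ending at 0 where the SD exceeds the mean). *Socs1* and *Cgas* are lower and *Ikbke* higher in every MCT2 KO library than in any MCT2 CO library. *Ifng* and the summed T-cell markers are lowest in MCT2 KO replicate 2 and highest in MCT2 KO replicate 3. The summed endothelial markers, not shown, have the same lowest and highest libraries.

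A further 71 interferon-stimulated genes, among them chemokines, antigen presentation genes and other GTPases, were listed beside the 41, and 62 of them were tested. None was called by edgeR, 33 of 62 had a log2 fold change above 0, and the median was 0.00. At an unadjusted p under 0.05, *Cd274* (PD-L1, an inhibitory ligand of T cells) was higher and *Ccl12* (a monocyte chemokine) was lower. *Cd274* had 127, 156 and 86.9 CPM in MCT2 CO and 208, 130 and 289 CPM in MCT2 KO, so MCT2 KO replicate 2 lay within the MCT2 CO range (log2 fold change 0.76, SE 0.30, edgeR adjusted p = 0.506). *Ccl12* had 45.5, 43.7 and 62.6 CPM in MCT2 CO and 37.2, 42.9 and 29.2 CPM in MCT2 KO, without overlap (log2 fold change -0.47, SE 0.18, edgeR adjusted p = 0.497). Among the mice, MCT2 KO replicate 3 was highest for 45 of 62 and MCT2 KO replicate 2 lowest for 41. *Cxcl9*, an interferon gamma-induced chemokine that attracts T cells, had 45.4, 73.3 and 30.0 CPM in MCT2 CO and 72.7, 23.3 and 137 CPM in MCT2 KO (log2 fold change 0.65, SE 0.57), and -0.04 without MCT2 KO replicate 3. *Cxcl10*, *Cxcl11*, *Ifi47*, *Tgtp1*, *Tgtp2* and *Gbp9* had 0 counts in every library, with all of their exon bases inside the spans of other listed genes, so nothing can be said of their levels.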

How the data were processed

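Per the labels, poly-A libraries were made with a stranded kit. The authors aligned reads to GRCm38 with STAR 2.7.11b and deposited, per gene, the raw counts that featureCounts 2.1.1 gave, with FastQC 0.12.0 and MultiQC 1.28 for quality (tools and build from the submitters' processing notes); the annotation, strand setting and treatment of shared reads are not given in the sources used here. A further deposited column, of another kind, holds gene lengths equal to the whole gene span. Listed positions mostly differ from GENCODE M21 on GRCm38 (2.40% equal), so M21 positions are printed by Ensembl identifier. Genes inside the span of another listed gene had few or 0 counts.

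Counts were tested with edgeR 4.0.16 in R 4.3.3 (filterByExpr, minimum count 10 and total 15, TMM, quasi-likelihood test, Benjamini–Hochberg adjustment over 13485 genes, no covariates). DESeq2 1.42.0, limma 3.58.1 (voom), other scalings and filters, a replicate block and each mouse left out were alternatives. The procedure was tested on simulated data. Replicates are separate mice as the study describes them; no 2 libraries were near-identical. The members and lists were chosen with earlier results of these data known. Described with values were members whose groups did not overlap, the 5 with the smallest p, the 3 with the highest level per length and the member with the highest CPM in each role; *Irf1* and the pathway genes with values were added after seeing them. The study's snRNA-seq was not analysed here.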

Additional observations from a re-analysis of the deposited data

How the results depend on the processing

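None of the 40 genes was called under any edgeR or limma-voom setting; DESeq2 called 1, *Ifitm1*, both on the filtered and on the unfiltered table (log2 fold change 0.71 in both, adjusted p = 0.00253 and 0.00307). *Slc16a7* passed with DESeq2 at -1.05 and -1.04. The replicate numbers do not pair the mice (correlations of deviations 0.28, -0.27 and -0.19 for numbers 1 to 3), and no mouse pairing is stated. With the replicate block, 1 further gene instead of 2 had an unadjusted p under 0.05, *Irf7* was at -0.038, and no call changed. With limma-voom, *Irf7* was at -0.034 and *Ifng* at -0.052. In 1 setting, 9 genes were left out for possible shared reads: *Ifit1*, *Ifit3*, *Ifit3b*, *Ifitm2*, *Ifitm3*, *Oas1a*, *Mx1*, *Mx2* and the untested *Igtp*. They were chosen by name or by exon overlap with other listed genes, and *Gbp7* was kept. Of the 32 genes then tested, 1 had an unadjusted p under 0.05 and 1 had groups apart.

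When single mice were left out, the genes at an unadjusted p under 0.05 numbered 1 to 5, those above 0 numbered 4 to 32, those with groups apart 2 to 6, the pathway genes at an unadjusted p under 0.05 numbered 2 to 10 and the further genes 0 to 8. The extremes of 5, 4 and 6 came without MCT2 KO replicate 3, those of 32, 10 and 8 without MCT2 KO replicate 2, and that of 0 without MCT2 CO replicate 3. Log2 fold changes that changed sign ran from -0.22 to 0.25 for *Irf7*, -0.27 to 0.066 for *Isg15*, -0.16 to 0.27 for *Ifih1*, -0.088 to 0.33 for *Ifit1*, -0.33 to 0.071 for *Oasl1*, -0.30 to 0.22 for *Mx1*, -0.16 to 0.14 for *Parp14*, -0.049 to 0.83 for *Gbp2*, -0.077 to 0.80 for *Irf1* and -0.043 to 1.09 for *Cxcl9*, and *Ifng* was at -0.67 without MCT2 KO replicate 3. In a setting chosen after seeing the data, without MCT2 CO replicate 3 and MCT2 KO replicate 2, groups were apart for 5 genes, 6 pathway and 7 further genes had an unadjusted p under 0.05, and *Ifih1*, *Mx1*, *Parp14* and *Ifng* were at -0.058, 0.14, 0.064 and 1.28. The cause was not tested for any of these. The shares over all genes with mice left out are not given here, and smaller groups separate more easily by chance. The counts with mice left out are therefore not results about these genes. At these depths counting error matters little, other than for low genes such as *Ifitm2* and *Ifng*.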
